A study of Mus musculus with 7 samples.

Results

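The miRNAs studied here are the 76 mature miRNAs that the deposited table places in 100 kb of mouse chromosome 12 (build mm9), among 1078 rows of the table in all. This is the Mirg side of the imprinted Dlk1-Dio3 region, and the position written in each row's name was the only criterion. The 76 arms form 38 hairpins, from miR-379 to miR-3072, at chr12:110947275-110986159, a span of 38.885 kb with a median gap of 577.5 nt between neighbouring hairpins. The small RNAs were those that came down with Flag-tagged Ago2 in an anti-Flag immunoprecipitation from mouse embryonic stem cells grown with leukemia inhibitory factor, on a background that lacks the cells' own Argonautes. There were 7 libraries, 1 for each genotype: wild-type Ago2, the mutants Q548A, K566A, R792A_C793A, GKT_GKGT and PGKTP_AAAAA, and a control labelled empty. All 7 therefore share the Argonaute-null stem-cell background, and how the Ago2 constructs were expressed is not given in the labels.

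The Dlk1-Dio3 region is an imprinted domain whose noncoding RNAs and miRNAs are made from the maternal copy, while its protein-coding genes are made from the paternal copy. Its miRNAs come from long maternal transcripts that run through Gtl2 (Meg3), Rian and Mirg, and they are known from embryonic stem cells, embryo, placenta and brain. A hairpin is cut to a duplex of a 5p and a 3p arm, and Argonaute keeps 1 arm as its guide. The MID domain of Argonaute holds the guide's 5′ phosphate and first base, and bases 2 to 8 of the guide, the seed, pair with target mRNAs. K566A and Q548A alter the MID domain, GKT_GKGT and PGKTP_AAAAA alter the loop of that domain next to the first base, and R792A_C793A alters a pair of residues in the PIWI domain. The title of the series asks whether Argonaute itself sets which arm is kept.

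RefSeq mature sequences (GRCm38.p6) were matched by name to 72 of the 76 arms, which are 18 to 25 nt long. The sequences below are those of hairpins whose arms moved apart between libraries. They are written 5′ to 3′ with the seed in capitals, so that the small letter at the start is the first base that the MID loop faces.

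miR-667-5p: cGGUGCUGguggagcagugagcacg
miR-667-3p: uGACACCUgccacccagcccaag
miR-323-5p: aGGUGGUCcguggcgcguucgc
miR-323-3p: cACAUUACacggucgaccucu
miR-409-5p: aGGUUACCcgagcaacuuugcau
miR-409-3p: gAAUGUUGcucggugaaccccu
miR-134-5p: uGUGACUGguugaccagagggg
miR-134-3p: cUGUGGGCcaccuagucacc
miR-154-5p: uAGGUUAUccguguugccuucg
miR-154-3p: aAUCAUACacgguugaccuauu
miR-410-5p: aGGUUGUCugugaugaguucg
miR-410-3p: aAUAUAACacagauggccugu

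The next set holds abundant arms that differed in direction, 2 arms with some of the largest falls (miR-666-5p and miR-1197-3p), and a pair that shares its seed. miR-379-3p and miR-411-3p carry the same seed and differ at 2 positions in all.

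miR-543-3p: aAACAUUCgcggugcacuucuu
miR-541-5p: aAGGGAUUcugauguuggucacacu
miR-381-3p: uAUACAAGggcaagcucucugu
miR-300-3p: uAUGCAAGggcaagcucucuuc
miR-666-5p: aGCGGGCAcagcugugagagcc
miR-1197-3p: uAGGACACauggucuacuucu
miR-379-3p: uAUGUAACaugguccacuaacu
miR-411-3p: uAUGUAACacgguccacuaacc

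Of the 72 matched arms 31 begin with U, 26 with A, 11 with G and 4 with C. By the RefSeq strand, 37 of the 38 hairpins lie on the plus strand, and miR-299b lies on the minus strand across miR-299. Inside the GRCm38 annotation, where hairpins were compared by name, 9 of the 38 fell within the RefSeq gene Mirg and 13 within the GENCODE M21 gene Mirg, a long noncoding RNA. Of these 13, 6 touched an exon of at least 1 transcript, among them miR-134, miR-410, miR-412 and miR-485, and 7 lay in introns only, among them miR-154, miR-409 and miR-541.

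Library totals ran from 14914050 counts in K566A to 94842502 in wild type, and the empty control held 33461. Levels are counts per 1000000 (CPM), with the library total as the denominator, and with no replicates every comparison is of 2 libraries and has no p-value. Intervals are exact 95% intervals for counting error alone, because there is 1 library per genotype. The labels name no molecular identifiers, so duplicate reads could not be told apart and the intervals may be too narrow. A miRNA was tested if its mean over the 6 Ago2 libraries reached 10 CPM, which held for 337 miRNAs of the whole table and 41 of the 76 arms. It was said to rise or fall when the interval of its CPM ratio lay wholly above 2 or below 0.5. Fewer cells with a miRNA, less of it per cell and less of it bound per Ago2 molecule cannot be told apart in such libraries. The stem-cell check list, 9 miRNAs of the miR-290 and miR-302 clusters, had counts in every library and summed to 123233 CPM in wild type and between 60221 CPM (GKT_GKGT) and 374148 CPM (K566A) in the mutants. Marker miRNAs of fibroblast-like, endothelial and neural cells were higher in K566A than in wild type, at 4608 against 1093 CPM, 1458 against 155 CPM and 25017 against 3967 CPM. Of the 6 fibroblast markers 5 had counts in K566A, with miR-214-3p at 0. The muscle markers were rare, at 0.464 CPM in wild type and 2.08 CPM in K566A, the highest of the Ago2 libraries. The part of these cell types in the results was not tested.

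The 38 hairpins gave a few percent of Ago2-bound miRNA counts in every library. They held 4.17% of counts in wild type (Wilson 95% interval 4.16 to 4.17), 4.22% in Q548A, 4.66% in R792A_C793A, 4.96% in K566A, 3.28% in GKT_GKGT, 2.28% in PGKTP_AAAAA and 3.65% in the empty control (3.45 to 3.86). With the total as denominator PGKTP_AAAAA had the lowest share and K566A the highest. This order depended on the miR-290 cluster member miR-292-5p, which takes a large part of every library: without it in the total the share was 11.5% in wild type, 12.1% in Q548A, 10.9% in R792A_C793A, 11.1% in GKT_GKGT, 7.49% in PGKTP_AAAAA and 6.33% in K566A, the lowest. Much of the K566A share was miR-541-5p: without this arm it was 2.46% of the full total, against 3.40% in wild type. The neighbouring Gtl2 to Rian side of the region, with 36 rows, held 4.56% in wild type, 7.55% in K566A and 2.85% in PGKTP_AAAAA.

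Within the Mirg side a few arms carried most of the counts. Mean levels were at least 1000 CPM for 8 arms, 100 to 1000 CPM for 12, 10 to 100 CPM for 21, 1 to 10 CPM for 18 and below 1 CPM for 17. The 5 most abundant arms of wild type, miR-543-3p, miR-409-3p, miR-541-5p, miR-381-3p and miR-134-5p, made up 77.5% of its Mirg-side counts. In K566A miR-541-5p alone made up 50.4% of them, against 18.5% in wild type. Both arms of miR-654 were at 0 in every library.

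miR-543-3p, the leading Mirg-side miRNA of wild type, stood at 9414 CPM in wild type, 10897 in Q548A, 11834 in R792A_C793A, 3605 in K566A, 4783 in GKT_GKGT, 1795 in PGKTP_AAAAA and 8099 in the empty control. It was thus low in K566A and PGKTP_AAAAA, where it fell by 1.38 and 2.39 on the log2 scale. In GKT_GKGT its log2 ratio was -0.98 (95% interval -0.98 to -0.97), just short of the 2-fold line. Its hairpin (chr12:110955479-110955535) lies 107 nt downstream of that of miR-666, whose 5p arm had a wild-type level 34.5 times lower.

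miR-541-5p moved the other way in K566A. Its level was 7710 CPM in wild type, 8543 in Q548A, 9567 in R792A_C793A, 24975 in K566A, 5057 in GKT_GKGT, 5200 in PGKTP_AAAAA and 7143 in the empty control. The K566A library stood apart, with a log2 ratio of 1.70 (1.69 to 1.70), but this rise was not called with median-of-ratios scaling (0.86) or with the total without miR-292-5p (0.59). Both miR-543-3p and miR-541-5p begin with A.

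miR-381-3p and miR-300-3p were among the abundant arms that did not fall in PGKTP_AAAAA. miR-381-3p had 4165 CPM in wild type, 4530 in Q548A, 5140 in R792A_C793A, 5373 in K566A, 3042 in GKT_GKGT, 3893 in PGKTP_AAAAA and 3347 in the empty control. miR-300-3p had 1639 CPM in wild type, 1893 in Q548A, 1696 in R792A_C793A, 712 in K566A, 1810 in GKT_GKGT, 2648 in PGKTP_AAAAA and 1943 in the empty control. In PGKTP_AAAAA the log2 ratio was -0.10 for miR-381-3p and 0.69 for miR-300-3p, which became a called rise with median-of-ratios scaling (1.32). miR-300-3p fell in K566A (-1.20).

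miR-134-5p, a miRNA known for limiting dendritic spine growth in neurons, had 3001 CPM in wild type, 2944 in Q548A, 2865 in R792A_C793A, 514 in K566A, 3326 in GKT_GKGT, 2894 in PGKTP_AAAAA and 1823 in the empty control. It fell 5.84-fold in K566A, and in the other 4 mutants its log2 ratio lay between -0.07 and 0.15.

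**Figure D1:**
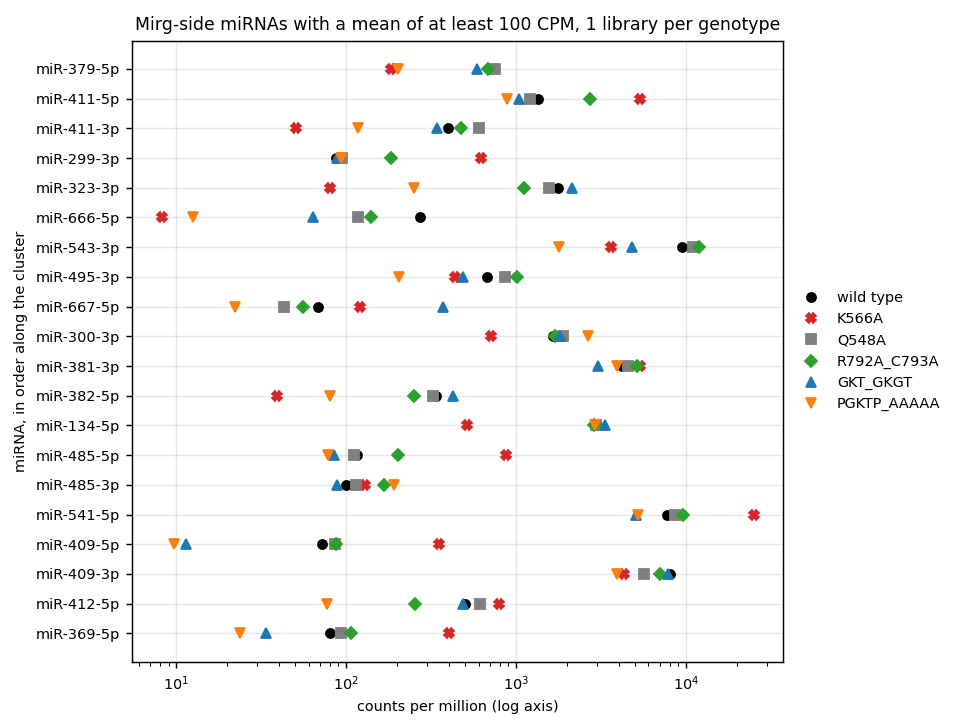
Level of each Mirg-side miRNA with a mean of at least 100 CPM, in CPM on a log axis, in order along the cluster; each symbol is 1 library and there are no error bars because each genotype has 1 library. K566A lies above all other libraries for miR-541-5p (24975 CPM). For miR-666-5p K566A (8.25 CPM) and PGKTP_AAAAA both lie below the rest, and PGKTP_AAAAA is at or near the low end for most arms.

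Most tested Mirg-side arms were lower in PGKTP_AAAAA than in wild type. Of the 41 tested arms 30 fell, against 33.5% of all tested miRNAs, and 0 rose, against 7.12%. The median log2 ratio of the 41 was -1.75, and that of all tested miRNAs -0.54. The 3 largest falls were those of miR-667-3p (-4.89), miR-1197-3p (-4.58) and miR-666-5p (-4.43). Besides miR-300-3p and miR-381-3p, the arms that did not fall included miR-485-3p (0.94, or 1.57, a called rise, with median-of-ratios scaling), miR-299-3p (0.10) and miR-134-5p (-0.05). Both kinds of arm fell, 12 of 16 tested 5p arms and 18 of 25 tested 3p arms. Fewer falls were called with other denominators. Median-of-ratios scaling gave 8 falls of 5p and 15 of 3p arms, and the total without miR-292-5p gave 9 and 16. By first base the falls were 12 of 16 for A, 2 of 2 for C, 3 of 3 for G and 12 of 17 for U. Outside the Mirg side they were 30 of 61 for A, 6 of 53 for C, 16 of 24 for G and 23 of 113 for U. Of the 23 tested miRNAs of the Gtl2 to Rian side 12 fell and 2 rose, with a median of -1.18.

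miR-666-5p illustrates the falls. It had 273 CPM in wild type, 118 in Q548A, 141 in R792A_C793A, 8.25 in K566A, 63.5 in GKT_GKGT and 12.6 in PGKTP_AAAAA, and the 89.7 CPM of the empty control rest on 3 counts. All 5 mutants were below wild type, and R792A_C793A, with a log2 ratio of -0.96, was the 1 mutant in which it missed the 2-fold line, which it passed with median-of-ratios scaling (-1.32).

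In K566A the 3p arms of the Mirg side stood lower, relative to wild type, than its 5p arms. Of the 41 tested arms 9 rose, against 47.5% of all tested miRNAs, and 19 fell, against 19.6%. Their median log2 ratio was -1.09, where all tested miRNAs had a median of 0.92. Of the 5p arms 7 of 16 tested rose and 4 fell (median 0.74), and of the 3p arms 2 of 25 rose and 15 fell (median -1.61). The direction of the 5p arms depended on the denominator: median-of-ratios scaling gave 6 higher and 7 lower (median -0.10), and the total without miR-292-5p gave 4 higher and 7 lower (median -0.37). The 3p medians were then -2.45 and -2.72, with 1 higher and 17 lower in either case. With the library total, 79 of 163 tested 5p arms outside the Mirg side rose and 27 fell (median 0.99). Outside it 72 of 133 tested 3p arms rose and 20 fell (median 1.23). On the Gtl2 to Rian side 5 of 23 tested miRNAs rose and 8 fell (median 0.08). Of the 17 tested Mirg-side arms that begin with U 11 fell and 4 rose. Among them 9 of the 11 3p arms fell and 1 rose, and 2 of the 6 5p arms fell and 3 rose. Of the 113 tested U-first miRNAs outside the Mirg side, of either arm, 17 fell and 69 rose.

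The 9 arms that rose in K566A were led by miR-485-5p (log2 ratio 2.92), miR-299-3p (2.84) and miR-154-5p (2.52), and also comprised miR-369-5p, miR-409-5p, miR-299-5p, miR-411-5p, miR-377-3p and miR-541-5p. The values of both miR-299 arms are uncertain, for the reasons given below. The largest falls were those of miR-1197-3p, miR-410-3p and miR-666-5p (-5.04). For miR-410-3p the levels were 94.1 CPM in wild type, 107 in Q548A, 51.1 in R792A_C793A, 1.21 in K566A, 61.2 in GKT_GKGT, 13.0 in PGKTP_AAAAA and 120 in the empty control, a 75.9-fold fall in K566A. miR-1197-3p went from 3689 counts in wild type to 3 in K566A, a CPM ratio 166-fold lower, with a log2 interval of -9.87 to -6.05. The seed-sharing arms miR-379-3p (-4.28) and miR-411-3p (-2.97) also both fell. The other Mirg-side arms of their hairpins differed: miR-411-5p rose, though not with the total without miR-292-5p (0.89), and miR-379-5p fell (-1.96).

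The count of rises and falls in K566A depended on the denominator, as the shares above did. With the total taken without miR-292-5p the split was 5 higher and 24 lower, and with median-of-ratios scaling, which moves every K566A log2 ratio by -0.84, it was 7 higher and 24 lower. The 47.5% and 19.6% of all tested miRNAs belong to the library total and are no background for these counts. The stem-cell, fibroblast-like, endothelial, neural and muscle marker sums that were higher in K566A, given above, moved with these changes, and their part was not tested.

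**Figure D2:**
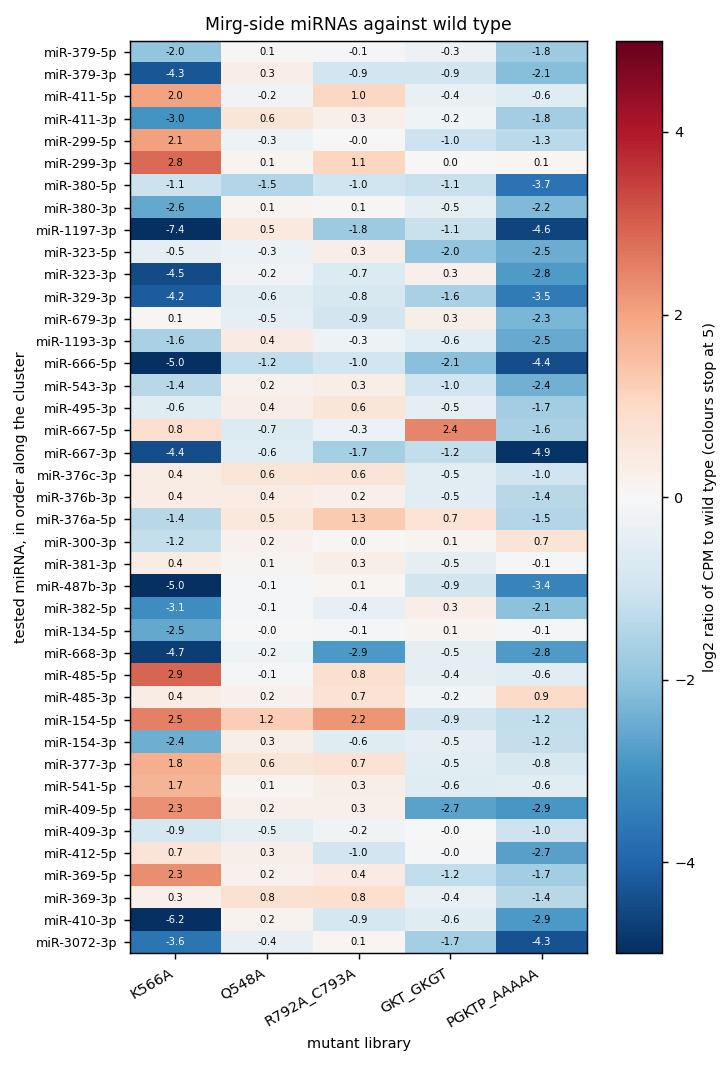
Log2 ratio of CPM to wild type for the 41 tested Mirg-side miRNAs, in order along the cluster, with 1 column for each mutant library; red is higher and blue lower than wild type, and colours stop at 5. The PGKTP_AAAAA column is blue for most arms, K566A alternates between red and deep blue, and Q548A is pale throughout, between -1.46 (miR-380-5p) and 1.24 (miR-154-5p).

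In GKT_GKGT 1 of the 41 tested arms rose, against 11% of all tested miRNAs, and 9 fell, against 11.9%. The median log2 ratio was -0.50, and -0.29 over all tested miRNAs. With the total without miR-292-5p 5 fell and the median was -0.20. The arm that rose was the C-first miR-667-5p, at 68.0 CPM in wild type, 42.9 in Q548A, 55.7 in R792A_C793A, 121 in K566A, 369 in GKT_GKGT, 22.1 in PGKTP_AAAAA and 0 in the empty control. GKT_GKGT lay highest, with a log2 ratio of 2.44 (2.40 to 2.48). The other tested C-first arm, miR-323-3p, had a ratio of 0.27 and was not called.

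The falls in GKT_GKGT included 6 of the 16 tested A-first arms and 3 of the 17 tested U-first arms, and 0 of the 3 G-first arms. Outside the Mirg side 17 of 61 A-first and 8 of 113 U-first miRNAs fell, and 26 of 53 C-first miRNAs rose. The largest fall was that of miR-409-5p, an A-first arm, with 72.4 CPM in wild type, 85.7 in Q548A, 87.4 in R792A_C793A, 349 in K566A, 11.4 in GKT_GKGT, 9.67 in PGKTP_AAAAA and 89.7 in the empty control. It was low in both loop mutants and high in K566A. miR-666-5p (-2.10) and miR-323-5p (-1.96) followed in GKT_GKGT.

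**Figure D3:**
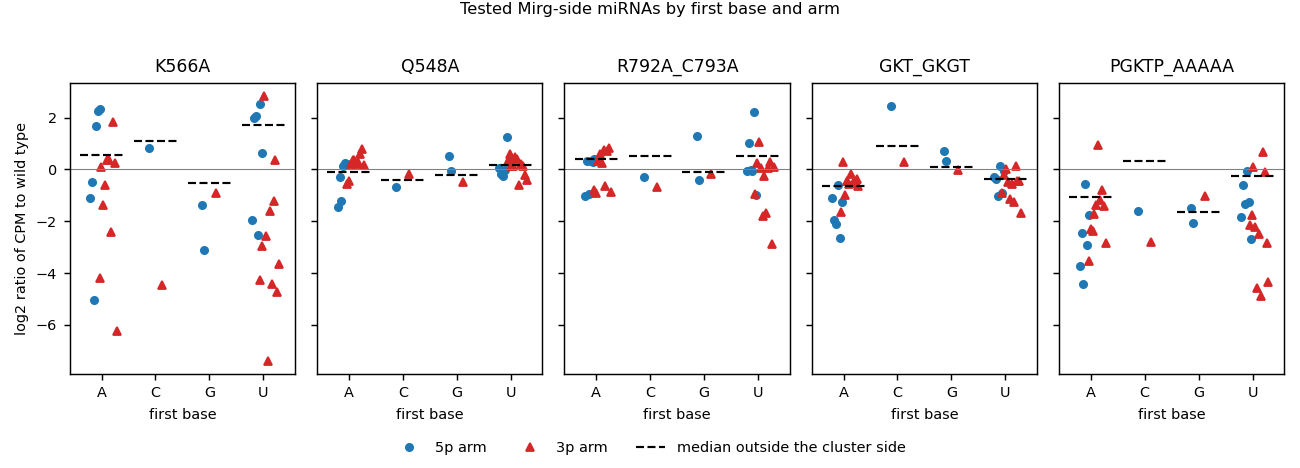
Log2 ratio of CPM to wild type for the tested Mirg-side miRNAs with a matched sequence, by first base, with 1 panel for each mutant library; circles are 5p arms, triangles 3p arms, and the dashed line is the median of tested miRNAs outside the Mirg side with that first base. In K566A most U-first triangles lie below 0 while the dashed U line, which covers either arm, lies at 1.71, and in GKT_GKGT both C-first points lie above 0.

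Fewer Mirg-side arms changed in R792A_C793A and Q548A. In R792A_C793A 4 of 41 rose, against 15.7% of all tested miRNAs, and 3 fell, against 6.82%, with a median of 0.07 against 0.43 over all. The rises were those of miR-154-5p (2.21), miR-376a-5p (1.30), miR-299-3p (1.08, an uncertain value, as given below) and miR-411-5p (1.02). The falls were those of miR-668-3p (-2.88), miR-1197-3p (-1.81) and miR-667-3p (-1.67). This split turned with the scaling: median-of-ratios gave 1 higher and 11 lower, with a median of -0.29. In Q548A 1 of 41 rose, against 1.78%, and 2 fell, against 4.45%, shares close to the background. The rise was that of miR-154-5p (1.24) and the falls those of miR-380-5p (-1.46) and miR-666-5p (-1.21).

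miR-154-5p was the 1 arm that rose in all 3 mutants outside the loop. Its levels were 18.7 CPM in wild type, 44.0 in Q548A, 86.5 in R792A_C793A, 107 in K566A, 9.93 in GKT_GKGT, 7.82 in PGKTP_AAAAA and 59.8 in the empty control, the last from 2 counts. These 3 comparisons share the wild-type library. Both loop mutants were below wild type, and the fall in PGKTP_AAAAA (-1.25) was not called with median-of-ratios scaling (-0.63).

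A direct comparison of both loop mutants leaves wild type out. In GKT_GKGT 21 of the 41 arms were higher than in PGKTP_AAAAA, against 25.5% of all tested miRNAs, and 1 was lower, against 5.93%. The median log2 ratio was 1.26, and 0.32 over all tested miRNAs. The arm lower in GKT_GKGT was miR-485-3p (-1.11), and the difference was 4.06 for miR-667-5p, 3.65 for miR-667-3p and 3.09 for miR-323-3p. The Gtl2 to Rian side was similar: 13 of its 23 tested miRNAs were higher in GKT_GKGT and 2 lower, with a median of 1.08. These calls use the library total as denominator. When Q548A, the library with the fewest changes, stood in for wild type, K566A had 10 arms higher (background 47.2%) and 20 lower (19.6%). R792A_C793A then had 1 higher (14.2%) and 6 lower (5.34%), GKT_GKGT 1 higher (14.8%) and 10 lower (18.1%), and PGKTP_AAAAA 0 higher (9.79%) and 30 lower (34.1%).

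Arm balance was read within hairpins, where the library total cancels. Of the 38 hairpins 36 had at least 100 counts over the 6 Ago2 libraries, against 443 in the whole table. The major arm is the arm with the larger part of that sum. A hairpin was called when the odds of its minor over its major arm differed from wild type by more than 2-fold over the whole 95% interval. In wild type the 3p arm led in 23 of the 36 hairpins and the 5p arm in 13, and in 22 a single arm held over 90% of counts. The 5p arm led in 19 of 35 hairpins with counts in K566A, and in 12 or 13 in each of the other 4 mutants. Single hairpins still changed leading arm there: miR-380, miR-485 and miR-154 in Q548A, and miR-380 and miR-154 in R792A_C793A. In both GKT_GKGT and PGKTP_AAAAA they were miR-380, miR-667 and miR-485. Of these, miR-380, miR-485 and miR-154 were near balance in wild type, so a small change could turn the leading arm. The 5p share of miR-485 was 53.8% in wild type, 49.4% in Q548A, 49.0% in GKT_GKGT and 29.0% in PGKTP_AAAAA. The change was not called for miR-485 and miR-154 in Q548A, miR-380 in R792A_C793A, or miR-380 and miR-485 in GKT_GKGT.

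In K566A 14 of the 36 hairpins had a higher share of the minor arm, against 21.4% of all, and 7 a lower one, against 17.4%. Read by arm, 16 moved towards 5p, against 17.2%, and 5 towards 3p, against 21.7%. Without miR-541-5p the 5p share of all Mirg-side counts was 20.0% in wild type and 36.4% in K566A, and between 19.4% and 24.7% in the other mutants. Much of the remaining 5p share in K566A was miR-411-5p. This arm held 10.8% of all Mirg-side counts there, against 3.21% in wild type. The leading arm changed from 3p to 5p in miR-494, miR-1193, miR-667, miR-154, miR-410 and miR-3072. For miR-494 the 5p share went from 24.8% in wild type to 51.8% in K566A (Wilson 95% interval 46.5 to 57.1), so its leading arm there is not settled. Both arms of miR-410 begin with A, and its 5p share went from 10.4% in wild type to 83.2% in K566A (Wilson 95% interval 75.0 to 89.1, from 89 and 18 counts), against 26.0% in R792A_C793A, 8.18% in GKT_GKGT, 6.63% in PGKTP_AAAAA and 6.47% in Q548A. Its log2 odds ratio in K566A was 5.37, ahead of miR-667 (5.26) and miR-3072 (5.11). Falls in the minor-arm share were largest in miR-411 (-4.97), miR-154 (-4.95) and miR-679 (-2.79).

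The U-first 5p arm of miR-154 held 45.8% of its hairpin in wild type, 62.2% in Q548A, 85.7% in R792A_C793A, 96.3% in K566A, 38.9% in GKT_GKGT and 44.6% in PGKTP_AAAAA. K566A and R792A_C793A stood clearly above the rest. In miR-411, whose arms both begin with U, the 5p arm held 77.2% in wild type, 66.6% in Q548A, 85.2% in R792A_C793A, 99.1% in K566A, 75.1% in GKT_GKGT and 88.3% in PGKTP_AAAAA. Both arms also begin with the same base in miR-379, miR-1193, miR-300 and miR-369, which were called in K566A as miR-410 and miR-411 were. The same holds for miR-299, miR-758, miR-329, miR-543, miR-412 and miR-377, which were not called there. The part of the first base was not tested.

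In GKT_GKGT 8 hairpins had a higher minor-arm share, against 16.5% of all, and 2 a lower one, against 12%. By arm, 3 moved towards 5p, against 11.3%, and 7 towards 3p, against 17.2%. The 3 with a C-first and a U-first arm, miR-667, miR-1197 and miR-134, all moved towards C, as did 33 of 62 such hairpins outside the Mirg side, with 0 called towards U. In K566A 2 of the 3 moved towards C and 0 towards U, against 13 and 10 of the 62, and in PGKTP_AAAAA 1 and 0, against 9 and 3. The C-first 5p arm of miR-667 (chr12:110958230-110958293) held 22.3% in wild type, 21.6% in Q548A, 42.9% in R792A_C793A, 91.7% in K566A, 78.7% in GKT_GKGT and 73.5% in PGKTP_AAAAA. Levels separate these libraries: in GKT_GKGT the 5p arm rose while the 3p arm fell (-1.24, or -0.94 and not called with the total without miR-292-5p), and in PGKTP_AAAAA the log2 ratio was -4.89 for the 3p and -1.62 for the 5p arm. The C-first miR-134-3p had 73 counts in wild type, 23 in Q548A, 23 in R792A_C793A, 9 in K566A, 505 in GKT_GKGT and 19 in PGKTP_AAAAA, from libraries of different depth. Against its 5p arm the log2 odds ratio was 3.57 in GKT_GKGT (3.22 to 3.95) and 2.26 in K566A (1.01 to 3.20), both called, the latter from 9 reads. The C-first miR-1197-5p was at 0 in wild type, K566A, PGKTP_AAAAA and the empty control, and had 7 counts in Q548A, 8 in GKT_GKGT and 9 in R792A_C793A. The exact 95% lower limit of its odds over wild type was 7.08-fold in GKT_GKGT and 11.7-fold in R792A_C793A, and with that 0 taken as 3 counts the ratios were 11.1 and 17.8.

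The hairpin with a C-first and an A-first arm is miR-323 (chr12:110950733-110950788). miR-323-3p, its C-first arm, had 1767 CPM in wild type, 1554 in Q548A, 1111 in R792A_C793A, 80.0 in K566A, 2132 in GKT_GKGT, 251 in PGKTP_AAAAA and 1076 in the empty control. miR-323-5p, its A-first arm, had 106 CPM in wild type, 86.6 in Q548A, 133 in R792A_C793A, 75.9 in K566A, 27.2 in GKT_GKGT, 19.0 in PGKTP_AAAAA and 0 in the empty control. The ratio of C-first to A-first arm therefore rose in GKT_GKGT by 2.23 on the log2 scale and fell in K566A by 3.99, and the changes were -0.34 in PGKTP_AAAAA, -1.01 in R792A_C793A and 0.10 in Q548A. Outside the Mirg side 17 of 34 such hairpins were called towards C and 1 towards A in GKT_GKGT. These numbers were 7 and 5 in K566A, 16 and 0 in PGKTP_AAAAA, 9 and 1 in R792A_C793A, and 2 and 2 in Q548A. In K566A the arms were nearly balanced, with 48.7% of counts from 5p against 5.64% in wild type.

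miR-409 (chr12:110981382-110981435) joins an A-first and a G-first arm. miR-409-3p, the G-first arm, had 7998 CPM in wild type, 5646 in Q548A, 7000 in R792A_C793A, 4306 in K566A, 7851 in GKT_GKGT, 3903 in PGKTP_AAAAA and 7352 in the empty control. Its log2 ratio was -1.04 in PGKTP_AAAAA, a called fall, and -0.89 in K566A. These calls changed places with the denominator: with median-of-ratios scaling the values were -0.41 and -1.73, and with the total without miR-292-5p the PGKTP_AAAAA value was -0.78. Under both settings the fall was called in K566A instead. The 5p share was 0.897% in wild type, 1.50% in Q548A, 1.23% in R792A_C793A, 7.50% in K566A, 0.145% in GKT_GKGT and 0.247% in PGKTP_AAAAA, so the loop mutants and K566A lay on opposite sides of wild type. Of the 6 hairpins with a G-first and an A-first arm, 5 had a ratio of G to A arm above that of wild type in GKT_GKGT (median log2 change 1.27), the exception being miR-679 (-0.88). Of these 6, 3 were called towards G and 0 towards A, and outside the Mirg side 4 and 0 of 14, with 9 of 14 above wild type. The G-first arm of miR-495 had 9 counts in wild type and 18 in GKT_GKGT. In the other mutants the ratio was above wild type in 2 of 6 in K566A and in PGKTP_AAAAA, 3 in Q548A and 4 in R792A_C793A.

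miR-299 (chr12:110948854-110948907) has a U at the start of both arms. miR-299-3p had 86.8 CPM in wild type, 94.7 in Q548A, 183 in R792A_C793A, 622 in K566A, 87.7 in GKT_GKGT, 93.2 in PGKTP_AAAAA and 120 in the empty control, so K566A and, by 2.11-fold, R792A_C793A stood above the others. The R792A_C793A rise was not called with median-of-ratios scaling (0.72). Its 5p share was 11.5% in wild type and between 4.52% (PGKTP_AAAAA) and 8.99% (Q548A) in the mutants. miR-299b is read from the opposite strand of the same bases. Its 5p and 3p arms match those of miR-299 with 0 mismatches where they align. The sources used here do not say whether counting used strand or how reads that match both hairpins were assigned. The values of miR-299 and miR-299b are therefore uncertain.

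In miR-666 (chr12:110955313-110955371) and miR-543 the leading arm held in all 6 Ago2 libraries. The 5p arm of miR-666 kept 97.9% in wild type, 97.4% in Q548A, 98.5% in R792A_C793A, 84.2% in K566A (77.5 to 89.3, from 123 and 23 counts), 94.7% in GKT_GKGT and 99.4% in PGKTP_AAAAA. miR-543-5p had 42 counts in wild type against 892856 for its 3p arm.

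**Figure D4:**
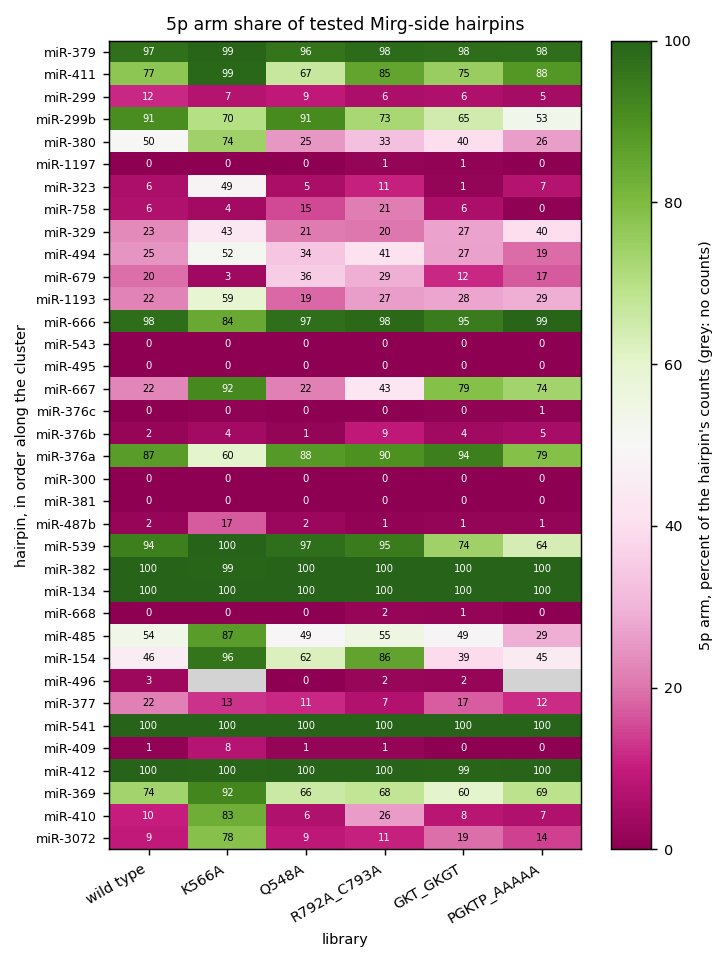
Share of each tested hairpin's counts that came from its 5p arm, in percent, for the 6 Ago2 libraries in order along the cluster; green is 5p, pink is 3p, and grey marks hairpins with no counts. The columns of wild type and Q548A look alike, while K566A turns miR-667, miR-410, miR-3072 and miR-154 green and GKT_GKGT and PGKTP_AAAAA turn miR-667 green.

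In PGKTP_AAAAA 4 hairpins had a higher minor-arm share, against 6.77% of all, and 5 a lower one, against 16.7%. By arm, 2 moved towards 5p, against 10.2%, and 7 towards 3p, against 13.3%. Set against PGKTP_AAAAA, GKT_GKGT had 3 hairpins with a higher minor-arm share, against 15.6%, and 3 with a lower one, against 5.42%. Against wild type the PGKTP_AAAAA rises were led by miR-667 (3.27), miR-539 (3.20, from 21 and 12 counts in the mutant) and miR-299b (3.07), and the falls by miR-758 (-3.27, from 1 and 207 counts), miR-409 (-1.87) and miR-380 (-1.50). R792A_C793A had 6 higher, against 7.45%, and 3 lower, against 11.1%, with 8 towards 5p, against 10.4%, and 1 towards 3p, against 8.13%. After miR-1197 its rises were led by miR-300 (3.13, a minor arm of 45 counts against 8 in wild type) and miR-376b (2.55), and its falls were those of miR-154 (-2.83), miR-541 (-2.05) and miR-377 (-1.89). Q548A had 1 higher, against 3.39%, namely miR-679 (1.19), and 1 lower, against 4.97%, namely miR-380 (-1.60). miR-380 was balanced in wild type, at 50.5% 5p, and stood at 25.2% in Q548A, 32.6% in R792A_C793A, 74.2% in K566A, 39.6% in GKT_GKGT and 26.4% in PGKTP_AAAAA. Its 5p arm begins with A and its 3p arm with U.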

How the data were processed

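The authors' deposited values are raw read counts per mature miRNA locus in 7 libraries, 1 per genotype. The submitters' processing notes name CASAVA 1.8.2, TopHat2 2.0.9 and the build mm9. Libraries were made with the NEBNext small RNA kit, per the labels' protocols. Which program counted reads, with which miRNA annotation, and how it handled reads that match more than 1 locus, is not given in the sources. Adapter ligation can differ between sequences, so levels of different miRNAs also reflect the kit.

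The table's 1078 rows held 959 names. For levels and library totals each name was counted once, by its highest locus. Another 9 names with counts equal to another's (within 1% or 3 counts, sum of at least 200) were merged, which left 950 miRNAs. None of the 76 Mirg-side arms was merged or had a second locus under its own name. CPM used the resulting total. Ratios of 2 libraries carry exact conditional 95% intervals, and odds ratios of arms exact or, with all 4 counts at 500 or more, Woolf intervals; log2 ratios used a pseudocount of 0.5 counts. Arms of 1 name with starts within 150 nt formed a hairpin. Where a count was 0, up to 3 counts remain possible: 89.7 CPM in the empty control, 0.201 CPM in K566A and 0.0316 CPM in wild type. The scripts (Python 3.11.15, pandas 2.3.3, scipy 1.17.1) were tested on simulated counts.

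The miRNAs named are both arms of miR-299, miR-323, miR-409, miR-543 and miR-666, arms with a mean of at least 100 CPM, per mutant the 3 largest rises and falls of arms and of hairpins, the extremes of a range, and hairpins with a C-first arm; miR-154, miR-380, miR-410, miR-411 and miR-379-3p are described further after their values were seen. The members and lists were chosen with earlier results of these data known. Alternatives were the scaling, the total without miR-292-5p, no filter on low levels, every deposited row counted on its own, a pseudocount of 5 and a hairpin minimum of 1000 counts.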

Additional observations from a re-analysis of the deposited data

How the results depend on the processing

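No paired analysis was possible because each genotype has 1 library, and for the same reason no replicate could be left out. With the total taken without miR-292-5p, K566A had 5 arms higher, R792A_C793A 1 higher and 9 lower, GKT_GKGT 5 lower with a median log2 ratio of -0.20, and PGKTP_AAAAA 1 higher. With median-of-ratios scaling R792A_C793A had 1 higher and 11 lower and its median turned to -0.29, the GKT_GKGT median was -0.32, and PGKTP_AAAAA had 2 higher and a median of -1.13. These settings divide by another library size, which moves all ratios of a library together. The shares of all tested miRNAs given above belong to the library total and the 10 CPM limit. They are no background for counts under the other settings. Without the filter on low levels, which adds arms to the test, K566A had 17 higher, R792A_C793A 8 higher and 5 lower, GKT_GKGT 6 higher and PGKTP_AAAAA 2 higher. Counting every deposited row on its own and a hairpin minimum of 1000 counts left the counts within 1.5 times those reported. The first of these leaves the reads of each Mirg-side arm as they are and alters the library total. A pseudocount of 5 enters log2 values alone and cannot change a call. For named miRNAs, 129 results kept their call with median-of-ratios scaling, 13 gained one and 13 lost one; without miR-292-5p these numbers were 131, 10 and 14, and 0 reversed. Depth limits the rare arms: 41 of the 76 were at 0 in the empty control and 11 in K566A.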

Other observations

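The 35 arms below a mean of 10 CPM entered no comparison of levels between libraries at the 10 CPM limit. Among them miR-496-3p had 129 counts in wild type, 152 in Q548A, 84 in R792A_C793A, 0 in K566A, 56 in GKT_GKGT and 0 in PGKTP_AAAAA. The exact 95% limit of its CPM ratio was 5.42-fold lower than wild type in K566A and 9.06-fold lower in PGKTP_AAAAA, and with 0 taken as 3 counts per library the ratios were 6.76 and 11.3. miR-758-3p, with 193 counts in wild type and 207 in PGKTP_AAAAA, and miR-299b-3p, with 20 and 37, had CPM ratios to wild type wholly above 2 in PGKTP_AAAAA, where 0 of the tested arms did. miR-376b-5p had 490 counts in R792A_C793A against 119 in wild type and 108 in Q548A. miR-539-3p had 57 counts in GKT_GKGT against 34 in wild type, and 0 in K566A. Other pairs of arms share a seed: miR-379-5p with miR-1193-5p, miR-1197-5p with miR-758-5p, miR-494-5p with miR-410-5p, miR-376c-5p with miR-376b-5p, and miR-299-3p with miR-299b-3p. The last pair has 0 mismatches where its sequences align.

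The empty control, with 1221 Mirg-side counts, had the same 4 leading arms as wild type, and 35 of the 76 arms had a count there. Its 5p share of Mirg-side counts was 33.4% (Wilson 95% interval 30.8 to 36.1), against 34.8% in wild type.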
